A study of Homo sapiens with 6 samples.

Results

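miR-221-3p and miR-222-3p were chosen by name, as a pair of miRNAs made from one primary transcript, and are 2 of the 177 named miRNAs among 800 miRNA rows. Both were read by accession. The rule for the choice used no measured value, but it was made with earlier results of these data known. The study compared cells of RMUG-S-ip1, a line of human mucinous ovarian cancer, transfected with an siRNA against PRKRA (siPRKRA, 3 libraries) or with a control siRNA (3 libraries). Both groups were the same line, grown and transfected alike. The labels do not say whether the replicates came from separate cultures, and the p-values then reflect library-to-library spread that may be technical. Small RNAs in total RNA were measured with the NanoString nCounter assay, which counts colour-coded probes without amplification. PRKRA encodes PACT, a partner of Dicer, and its mRNA was not analysed here, so the extent of silencing is unknown.

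miR-221 and miR-222 are cut from hairpins of a long noncoding transcript, trimmed by Drosha in the nucleus and by Dicer in the cytoplasm, where PACT can bind Dicer. The arm loaded into Argonaute pairs through its seed with target mRNAs. In epithelial cancers the pair is known for repressing CDKN1B (p27, a brake on the cell cycle), TIMP3 and the receptor KIT, and high levels are often described in invasive, mesenchymal-like breast tumours.

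The mature sequences are shown because both miRNAs share a seed and were detected by separate probes. Each is written 5′ to 3′ from RefSeq on GRCh38.p14, with the seed, bases 2 to 8, in capitals.
miR-221-3p: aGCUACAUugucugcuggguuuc
miR-222-3p: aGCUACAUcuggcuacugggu
They had the first 8 bases in common and 11 of 21 positions identical when aligned from the 5′ end, so they differed only beyond the seed. Of 2370 mature human miRNA names in the table, these 2 were the only ones with this seed. The matching 7-base site in a target is auguagc. miR-221-3p lies at chrX:45746180-45746202 and miR-222-3p at chrX:45747036-45747056, both on the minus strand. The hairpins of 110 bases each are separated by 748 bases, inside the span of the noncoding gene MIR222HG (chrX:45745214-45770267). Whether these positions are exonic or intronic was not analysed here.

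The hairpins, from the same source, hold the part that Dicer cuts together with flanking bases, with the measured arm in capitals.
MIR221: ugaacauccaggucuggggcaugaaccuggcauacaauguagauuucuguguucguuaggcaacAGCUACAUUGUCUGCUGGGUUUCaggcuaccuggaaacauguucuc
MIR222: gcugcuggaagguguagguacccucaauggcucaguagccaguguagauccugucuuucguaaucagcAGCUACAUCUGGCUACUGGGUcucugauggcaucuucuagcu
In both hairpins the measured arm is the 3′ one. The opposite arms were not analysed here.

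A deposited value is a count above background multiplied by 1 factor per library. The factors were 0.231 to 1.09 in siPRKRA libraries and 1.32 to 1.53 in control siRNA libraries. Before that factor the miRNA rows held 142684 to 305261 counts in siPRKRA and 51641 to 56192 in control siRNA libraries. siPRKRA replicate 2 stood apart, with 62.6% of its signal in miR-4454, against 3.28% to 6.70% in the other libraries. Of 11 epithelial markers listed, 9 are named in the files, and they summed to 7095 to 7872 in siPRKRA and 8584 to 9813 in control siRNA libraries. The 2 named of 8 blood markers summed to 16.5 to 58.6 in siPRKRA and 16.6 to 235 in control siRNA libraries. Endothelial miR-126-3p had 161 to 216 in siPRKRA and 214 to 229 in control siRNA libraries. Neural miR-9-5p had 152 to 371 in siPRKRA and 316 to 342 in control siRNA libraries. The 2 named of 8 pluripotent markers, miR-302d-3p and miR-371a-3p, summed to 27.4 to 131 in siPRKRA and 138 to 188 in control siRNA libraries. The epithelial and the pluripotent sums were lower in all siPRKRA than in all control libraries, as were 16 of 106 single miRNAs tested (15.1%). The 4 tested epithelial markers differed, with log2 fold changes of -0.39 (miR-200c-3p), -0.46 (miR-141-3p), -0.08 (miR-205-5p) and 0.37 (miR-200b-3p). None of the 6 mesenchymal markers is among the named miRNAs. Whether any of these moved the pair was not tested.

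miR-221-3p was somewhat lower in siPRKRA cells, but the difference did not pass the test, and miR-222-3p was nearly level. Between the members, the ratio of miR-221-3p to miR-222-3p was lower in siPRKRA libraries, mainly against 1 control library, control siRNA replicate 1.

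miR-221-3p had deposited values of 278, 283 and 304 in siPRKRA replicates 1, 2 and 3, against 414, 324 and 332 in control siRNA replicates 1, 2 and 3. All siPRKRA libraries lay below all control libraries, and control siRNA replicate 1 was the highest by a wide margin. The means were 288 ± 13.9 in siPRKRA and 357 ± 50.2 in control siRNA libraries (SD, n = 3 each). The log2 fold change was -0.30 ± 0.13 (SE) on the log2(value + 1) scale, with a 95% interval of -0.61 to 0.02, at an unadjusted limma p of 0.0609 and a limma adjusted p of 0.293 over 106 tested miRNAs. Without control siRNA replicate 1 the log2 fold change was -0.18.

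How far this stands out has to be read against all miRNAs tested. Of the 106, 16 (15.1%) had all siPRKRA libraries below all control libraries, miR-221-3p among them. A further 13 of the 106 had all siPRKRA libraries above all control libraries. With each library left out in turn the number below was 18 to 28 and the number above 13 to 24. At a limma adjusted p of 0.05 the number called was 0 (0%), and 17 (16%) passed 0.05 before adjustment. limma-voom on the unscaled counts called 0 as well, with 17 before adjustment. Its library sizes were set from the authors' factors, so it carries the same scaling. miR-221-3p was 28th from the lowest fold change and 21st from the smallest p. The separation of the groups depended on the scaling. It was lost when values were scaled by the sum of all miRNA rows, also without miR-4454 and miR-720, and it was turned round with the graded control rows, where all siPRKRA libraries lay above all control libraries. As CPM of that last sum, miR-221-3p had 4068, 4094 and 4761 in siPRKRA and 5398, 4427 and 4732 in control siRNA libraries.

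miR-222-3p had deposited values of 307, 291 and 297 in siPRKRA replicates 1, 2 and 3, against 292, 293 and 324 in control siRNA replicates 1, 2 and 3. The groups overlapped, and the highest value over the 6 libraries was 1.11-fold the lowest. The means were 298 ± 7.79 in siPRKRA and 303 ± 18.3 in control siRNA libraries (SD, n = 3 each). The log2 fold change was -0.02 ± 0.10 (SE), with a 95% interval of -0.26 to 0.22, at a limma adjusted p of 0.949. These values do not exclude a change within that interval in either direction.

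**Figure D1:**
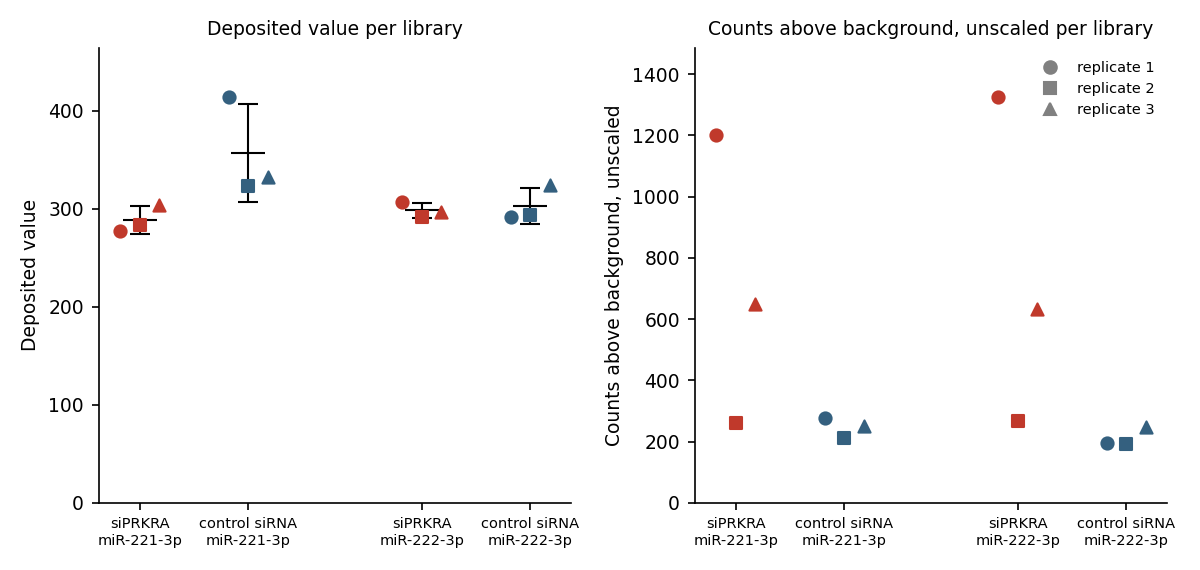
Deposited values (left) and counts above background before the library factor (right) of miR-221-3p and miR-222-3p, per library, with siPRKRA in red and control siRNA in blue. Bars on the left are the mean and SD of 3 libraries. The siPRKRA values of miR-221-3p, 278 to 304, all lie below those of the control libraries, 324 to 414, while those of miR-222-3p overlap. On the right siPRKRA replicates 1 and 3 hold the most counts of both.

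The counts behind these values differed between libraries more than the values did. miR-221-3p rested on 1202, 261 and 648 counts above background in siPRKRA and on 277, 212 and 252 in control siRNA libraries. miR-222-3p rested on 1327, 268 and 633 counts in siPRKRA and on 195, 192 and 246 in control siRNA libraries. Before scaling siPRKRA replicates 1 and 3 thus held the most counts of both members, over a 5.67-fold range for miR-221-3p and a 6.91-fold range for miR-222-3p. siPRKRA replicate 2 was close to the control libraries. By counting alone, the error of a single value was 2.88% to 6.19% in siPRKRA and 6.01% to 6.87% in control siRNA libraries for miR-221-3p, and 2.74% to 6.11% and 6.37% to 7.21% for miR-222-3p. These errors were taken from counts above background. They leave out the error of the subtracted background and are lower bounds. The spread of miR-222-3p between control libraries (SD 6.03% of the mean) was below its counting error. That of miR-221-3p (14.1%) was above this lower bound.

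miR-222-3p was among the steadiest miRNAs of the panel. Its SD over the 6 libraries was 0.06 on the log2(value + 1) scale, the 4th smallest of 106, after let-7i-5p, miR-99b-5p and miR-125b-5p (named after their values were seen). The median SD of the tested miRNAs was 0.33, and miR-221-3p was 29th at 0.21. This rank rests on the scaling, as miR-222-3p was 6th with the median of ratios and 10th with the sum without miR-4454 and miR-720, but 34th with the 5 mRNA rows and 47th with the graded control rows.

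The ratio of both miRNAs within a library does not depend on the library factor. Because the capture efficiency of each probe is unknown, the ratio was compared between libraries and not read as a ratio of molecules. miR-221-3p over miR-222-3p was 0.906, 0.974 and 1.02 in siPRKRA replicates 1, 2 and 3, against 1.42, 1.10 and 1.02 in control siRNA replicates 1, 2 and 3. The 2 highest ratios were those of control siRNA replicates 1 and 2. siPRKRA replicate 3 and control siRNA replicate 3 were nearly equal, at log2 ratios of 0.0338 and 0.0347, so the groups did not overlap by a margin far under the counting error.

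In terms of counts, miR-221-3p made up 47.5%, 49.3% and 50.6% of the pair in siPRKRA replicates 1, 2 and 3, and 58.7%, 52.5% and 50.6% in control siRNA replicates 1, 2 and 3. The exact Clopper-Pearson 95% interval was 45.6% to 49.5% in siPRKRA replicate 1 (1202 of 2529 counts) and 54.1% to 63.2% in control siRNA replicate 1 (277 of 472 counts). These were the libraries at both ends, and their intervals did not meet. The intervals of the other 4 libraries all included 50%. That value marks equal counts and, with unknown capture efficiency, not equal numbers of molecules. Intervals cover counting error only, and they rest on counts above background, so they can be too narrow.

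The mean log2 ratio was -0.05 ± 0.09 in siPRKRA and 0.23 ± 0.25 in control siRNA libraries (SD, n = 3 each), a difference of -0.28 (two-sided exact permutation p = 0.1, the smallest that 3 against 3 allows). Thus the test could not pass 0.05 whatever the data. Without control siRNA replicate 1 the difference was -0.14, and with any other library left out it stayed between -0.37 and -0.23.

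**Figure D2:**
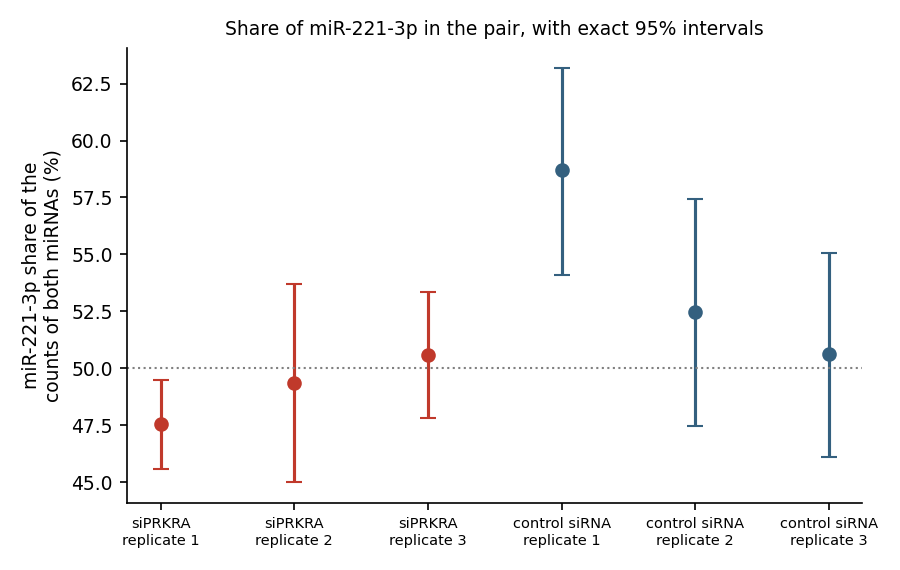
Share of miR-221-3p in the counts above background of miR-221-3p and miR-222-3p together, in percent, per library, with exact 95% binomial intervals. siPRKRA libraries (red) are at 47.5% to 50.6% and control siRNA libraries (blue) at 50.6% to 58.7%, and the dotted line marks 50%.

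Other pairs listed as sharing a primary transcript give a scale for this ratio. Of 35 such pairs, 21 had both rows tested. The size of the difference in log2 ratio between the groups was larger than that of miR-221-3p and miR-222-3p in 10 of them and smaller in 11, with a median of 0.22. In 7 of the 21 (33.3%) the groups did not overlap. Some of these miRNAs have a further gene elsewhere in the genome, which the ratio cannot separate.

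Pooled over both groups, the spread within groups of the ratio of miR-221-3p to miR-222-3p was an SD of 0.19 in log2 ratio. This pooled SD was larger in 15 of the 21 pairs and smaller in 6, with a median of 0.31. Within control siRNA libraries alone the SD of the pair was 0.25, and most of the other pairs had a smaller one. Within siPRKRA libraries it was 0.09, and most had a larger one. miR-200c-3p and miR-141-3p, both of the epithelial miR-200 family, had the smallest difference, 0.08. miR-374b-5p and miR-421, which lie on the X chromosome as well, differed by -1.01 in log2 ratio. In 1 pair, miR-193b-3p and miR-365a-3p, miR-193b-3p lay at the floor in a control siRNA library, so the size of its difference is not given. Without it 9 of 20 pairs had a larger difference than miR-221-3p and miR-222-3p and 11 a smaller one, and in 6 the groups did not overlap. These 3 pairs were picked after their values were seen.

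**Figure D3:**
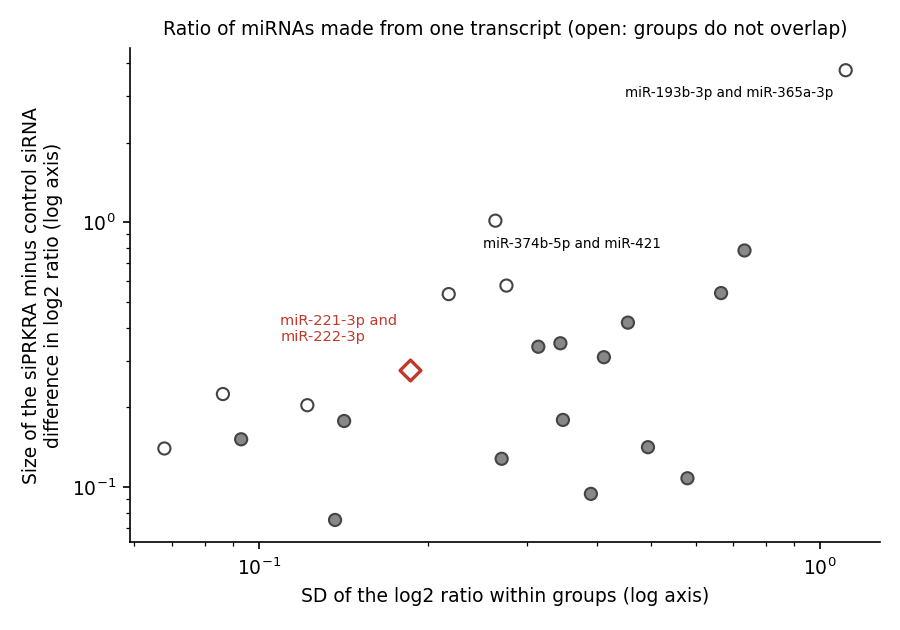
Each point is a pair of miRNAs listed as made from one transcript. Across the page is the SD of their log2 ratio within groups, pooled over both groups. Up the page is the size of the siPRKRA minus control siRNA difference in log2 ratio. Both axes are log axes. Open points are pairs whose groups did not overlap. The topmost point is the pair with a row at the floor, whose height has no exact meaning. miR-221-3p and miR-222-3p (diamond, 0.19 and 0.28) lie in the middle of the differences and in the lower part of the spreads.

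Although cut from one transcript, the members did not vary together in deposited values over the 6 libraries. Pearson's r of their log2(value + 1) was -0.12, and it was -0.51 without control siRNA replicate 3 and 0.40 without control siRNA replicate 1, the extremes of leaving out each library. All 6 points carry the group difference and the library factors, so these correlations are descriptions. The SD of miR-222-3p between control siRNA libraries, 6.03% of the mean, was below its counting error of 6.37% to 7.21%. An r with miR-222-3p therefore says little, and whether the members are coupled was not tested. Before scaling, siPRKRA replicates 1 and 3 held the most counts of both. Among the 105 other miRNAs ranked by r with miR-221-3p, miR-222-3p came 71st. The 5 most alike to miR-221-3p were miR-23a-3p (0.88), miR-34a-5p (0.85), a p53 target, miR-200c-3p (0.83), which represses ZEB1 and ZEB2, miR-361-5p (0.81) and miR-148a-3p (0.79). Without control siRNA replicate 1, r with miR-34a-5p was 0.51. The lowest r with any library left out was 0.68 for miR-148a-3p, 0.77 for miR-200c-3p, 0.80 for miR-361-5p and 0.82 for miR-23a-3p. All except miR-34a-5p also had every siPRKRA library below every control library.

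For miR-222-3p, whose own range was narrow, the 5 most alike were miR-515-5p (0.70), miR-151a-3p (0.54), miR-96-5p (0.51), miR-361-3p (0.51) and miR-30c-5p (0.51). Leaving out control siRNA replicate 3 turned r with miR-361-3p to -0.44 and took r with miR-151a-3p to 0.07.

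The other X chromosome miRNAs were described next, since the pair lies there. Of the 106 tested, 95 were found by name in the RefSeq table, and 6 besides the pair were placed on X alone. The list is thus incomplete. miR-374a-5p, also of the X chromosome, was not among the 6 (log2 fold change -0.60 ± 0.29 SE, limma adjusted p = 0.301). The counts and median below leave it out. With limma none of the 6 passed an adjusted p of 0.05, and 2 of the 6 passed it before adjustment, where 17 of all 106 did (16%). The estimates of these 6 were higher in 3 and lower in 3, with a median log2 fold change of -0.14, against -0.06 over all tested miRNAs. All siPRKRA libraries lay below all control libraries in 2 of the 6 and above them in 1, against 16 and 13 of all 106. miR-361-5p, from an intron of CHM, had 248, 204 and 242 in siPRKRA and 310, 279 and 298 in control siRNA libraries. Its groups did not overlap (log2 fold change -0.36 ± 0.12, SE; limma adjusted p = 0.265). miR-421 went the other way, with 67.3, 48.0 and 72.7 in siPRKRA and 45.0, 35.2 and 37.3 in control siRNA libraries. Its groups did not overlap either (log2 fold change 0.65 ± 0.25, SE; limma adjusted p = 0.265). miR-361-3p, from the hairpin of miR-361-5p, had 20.4, 19.7 and 30.4 in siPRKRA and 37.5, 33.7 and 54.4 in control siRNA libraries, with no overlap (log2 fold change -0.80 ± 0.34, SE; limma adjusted p = 0.293). miR-421 and miR-361-3p were chosen after their values were seen. miR-98, a let-7 family member, had means of 246 ± 52.1 in siPRKRA and 219 ± 21.3 in control siRNA libraries (SD, n = 3 each), and miR-374b-5p 175 ± 44.0 and 221 ± 39.8.

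All fold changes above carry the authors' scaling, and a direction holds only relative to it. Scaled by the graded control rows, miR-221-3p had a log2 fold change of 1.37 and miR-222-3p one of 1.64, where the median of all tested miRNAs was 1.61. Scaled by the 5 mRNA rows they had -0.86 and -0.58, at a median of -0.62. Relative to that median, miR-221-3p lay at -0.24 to -0.23 and miR-222-3p at 0.04 over the 6 other scalings, which is fixed by construction, since a factor per library moves all miRNAs nearly alike. With 25 counts of background added back to every row, miR-221-3p had -0.37 and miR-222-3p -0.11 (limma adjusted p = 0.229 and 0.464), at a median of -0.17. The added counts were multiplied by the library factor, which was higher in every control siRNA library. The shift of both members toward lower siPRKRA values was thus built in.

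**Figure D4:**
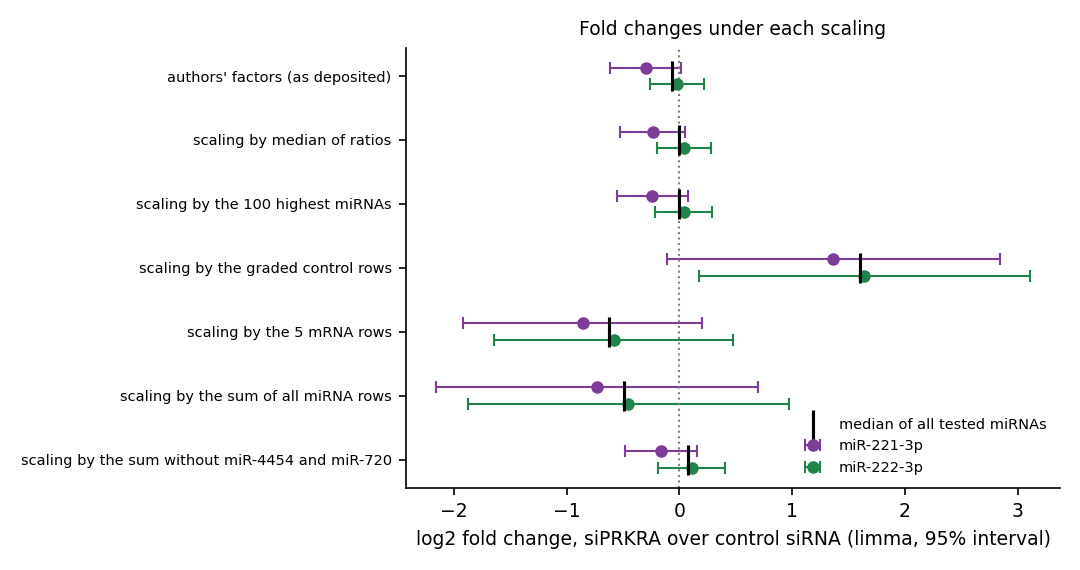
log2 fold changes of miR-221-3p (purple) and miR-222-3p (green), siPRKRA over control siRNA, with limma 95% intervals, under the authors' factors and 6 other scalings. The degrees of freedom were 424 for the graded control rows and the sum of all miRNA rows, and 39.4 for the 5 mRNA rows. They were 6.10 under the authors' factors. limma pools the spread over miRNAs as if independent, though a library factor is shared by all of them. Intervals under those 3 scalings can therefore be too narrow. Black ticks are the median of all 106 tested miRNAs, which ranges from -0.62 to 1.61. miR-221-3p lies left of the tick and miR-222-3p right of it or on it in every row.

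The authors' deposited table lists both miRNAs with their log2 levels per group. For miR-221-3p it gives log2 levels of 8.17 in siPRKRA and 8.47 in control siRNA cells with a p-value of 0.107 and an adjusted value of 0.452. For miR-222-3p the authors' deposited table gives 8.22 and 8.24, with 0.722 and 0.869. The fold changes in the authors' deposited table are ratios of these log2 levels and are not used here. On a linear scale the levels in the authors' deposited table differ 1.23-fold for miR-221-3p and 1.01-fold for miR-222-3p, both lower in siPRKRA cells.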

How the data were processed

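The authors deposited a signal per probe and library, log2 of that signal for 800 miRNA rows, and a table of p-values, log2 levels and a fold-change score for 177 miRNAs. The sources used here name neither the software nor the background rule. Within a library the deposited signal steps by 1 factor, and 99.4% to 100% of values above the floor were whole counts within 0.1 after division by it and removal of the fraction left by the subtracted background. No deposited column is a raw count, so limma 3.58.1 in R 4.3.3 (trended eBayes) was fitted to log2(value + 1), group only, over the 106 miRNAs that reached 30 in 3 or more libraries, with Benjamini-Hochberg adjustment. Ratios were tested by exact permutation in scipy 1.17.1 (Python 3.11.15). miRNAs were named by likeness (the 5 highest r per member) and as the 2 to 4 highest members of a list. One further list is not reported here. Members, lists and tests were chosen with earlier results of these data known.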

Additional observations from a re-analysis of the deposited data

How the results depend on the processing

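The log2 ratio of both miRNAs was negative in siPRKRA relative to control siRNA under all 11 alternatives, at -0.37 to -0.14. The deposited log2 table and the replicate block leave it unchanged by construction. Adding 1 or 10 to both values can move it little (-0.28 and -0.27). With 25 counts of background added back the ratio's groups overlapped (exact permutation p = 0.2), and all siPRKRA libraries lay below all control libraries for miR-222-3p. The log2 fold change of miR-221-3p was negative in 20 of 21 alternatives (limma adjusted p 0.202 to 0.806), and 1.37 with the graded control rows (limma adjusted p = 0.0928). That of miR-222-3p, near 0, changed sign to 0.040 with the median of ratios, 0.037 with the 100 highest miRNAs, 1.64 with the graded control rows and 0.11 with the sum without miR-4454 and miR-720. With each library left out it was -0.047 to 0.028. The changed filters, eBayes without a trend and the replicate block leave both log2 fold changes unchanged by construction. The number of miRNAs called was 22 with the graded control rows, 1 with the 5 mRNA rows, 1 without a trend in eBayes and 635 with no filter, where most rows lie at a floor that is itself lower in every siPRKRA library (1 to 1.09) than in every control siRNA library (1.32 to 1.53), and 0 to 4 with each library left out (4 without siPRKRA replicate 2, 2 without control siRNA replicate 3). Neither member was called in any of these. With the graded control rows all 22 were called higher, and 104 of the 106 estimates were positive, at a median of 1.61. limma had 424 degrees of freedom there, as it pools a spread that all miRNAs of a library share. Those 22 calls are therefore not separate evidence on each miRNA. For the counts other than that with no filter, and for the sign changes, the cause was not tested. Deviations of same-numbered libraries correlated at 0.17, -0.09 and -0.07 across miRNAs, and the numbers were not taken to pair the samples. With the replicate block the log2 fold changes were -0.30 and -0.02, 0 miRNAs were called and the sign-flip permutation p of the ratio was 0.25, the smallest 3 pairs allow. The ranks by spread and the counts without overlap were recomputed under alternatives chosen after seeing the data. In control libraries each member rested on 192 to 277 counts, and whether depth limited the calls was not tested.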
